A study of Mus musculus with 16 samples.

Results

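The 10 genes described here encode calcium-binding S100 proteins and annexins: *S100a1*, *S100a4*, *S100a6*, *S100a8*, *S100a9*, *S100a10*, *S100a11*, *Anxa1*, *Anxa2* and *Anxa5*. They were chosen from the 2 families with earlier results of these data known, and were found by symbol among the 55604 genes listed in each count table. The count filter was passed by 9 of the 10, and *S100a9* was too low to be tested. RNA was sequenced from tumor-associated macrophages (TAMs) of the peritoneal cavity of female C57BL/6 mice that had been given ID8 cells, a mouse ovarian cancer line, into the peritoneum 6 to 7 weeks earlier. The study used mice of 6 to 8 weeks of age. There were 4 libraries of Tim-4+ TAMs and 4 of Tim-4- TAMs, in pairs numbered 793, 784, 783 and 779, and no untreated mice. Tim-4, encoded by *Timd4*, is a receptor for phosphatidylserine carried by resident peritoneal macrophages. Tim-4+ TAMs were taken with magnetic beads through an antibody to Tim-4, and Tim-4- TAMs were then taken from the remaining cells with beads against F4/80, a macrophage surface protein. Every library came from tumor-bearing animals, and neither the number of cells nor any pooling of mice per library was given in the sources used here. The question of the comparison was how the transcripts of these families differed between the resident, Tim-4+ TAMs and the Tim-4- TAMs of the same pair.

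S100 proteins are small proteins that change shape on binding calcium and then bind partner proteins. Annexins bind membranes rich in acidic phospholipids, such as phosphatidylserine, when calcium rises. The families meet in known pairs: S100A10 binds annexin A2 at the plasma membrane, where the complex promotes plasminogen activation, and S100A11 binds annexin A1. In macrophages these proteins are known for membrane repair, phagocytosis and inflammatory signalling, and S100A8 and S100A9 together form calprotectin, which is abundant in neutrophils and monocytes.

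Library totals ran from 53527928 to 57768202 counts for Tim-4+ and from 55618306 to 69594245 for Tim-4- TAMs. Levels are given as CPM (counts of a gene relative to the scaled library total) after TMM scaling. Relative to the library totals before that scaling, 3 counts correspond to 0.0431 to 0.056 CPM. *Timd4*, the sorted gene, stood at 1160, 1743, 524 and 1166 CPM in the Tim-4+ libraries of pairs 793, 784, 783 and 779 and at 84.9, 11.1, 22.3 and 1.96 CPM in the Tim-4- libraries, so every library matched its label. The macrophage markers *Adgre1*, *Csf1r*, *Cd68*, *Lyz2*, *Itgam*, *Mertk* and *Fcgr1* were detected in every library, with summed levels of 43210 to 55560 CPM in Tim-4+ TAMs, against 20720 to 33050 CPM in Tim-4- TAMs. *Lyz2* made up most of this sum, at 33394 to 46905 CPM in Tim-4+ and 16043 to 27061 CPM in Tim-4- TAMs. Of the 7 markers 5 were higher in Tim-4+ TAMs and 0 lower, and *Csf1r* and *Fcgr1* did not pass the test. Transcripts known from other cell types were also seen. The 13 tumor and mesothelial markers, keratins and mesothelial genes such as *Msln* and *Upk3b*, summed to 126, 225, 457 and 268 CPM in the Tim-4+ libraries and to 504, 1518, 1022 and 2363 CPM in the Tim-4- libraries of the same pairs. All 13 had negative log2 fold changes, 12 of them past the test, and the lowest Tim-4- library was above the highest Tim-4+ library. Eosinophil and mast cell markers summed to 4.68 to 16.6 CPM in Tim-4+ and 20.5 to 65.6 CPM in Tim-4- TAMs. *Kit* was the largest part in every library, at 2.39 to 15.4 CPM in Tim-4+ and 13.2 to 55.6 CPM in Tim-4- TAMs. The eosinophil genes *Siglecf*, *Prg2*, *Epx*, *Il5ra* and *Ccr3* each reached at most 0.464 CPM. *Kit* and *Mcpt4* were called lower in Tim-4+ TAMs, and *Cpa3* and *Tpsb2* did not pass the test. Lymphocyte and dendritic cell markers summed to at most 32.9 CPM in any library. In such bulk samples, fewer cells of a type and less RNA per cell cannot be told apart.

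Among the members, *S100a1* rose and *S100a6* and *Anxa5* fell in Tim-4+ as compared with Tim-4- TAMs, and the other 6 tested genes did not pass the test. By edgeR's paired quasi-likelihood test with Benjamini-Hochberg adjustment across the 16861 tested genes, 1 of 9 tested members was thus higher at an adjusted p under 0.05, where 8.97% of all tested genes were, and 2 of 9 were lower, where 8.43% of all tested genes were. Only *S100a6* among them also differed by at least 2-fold (5.79% of all tested genes were lower by that margin and 3.8% higher). The 4 Tim-4+ and 4 Tim-4- values did not overlap for these 3 genes, against 12.8% of all tested genes. The median log2 fold change was -0.09 over the 9 members and -0.001 over all tested genes. When libraries were scaled by their totals instead of TMM, the latter median became -0.36, with 789 genes higher and 4903 lower instead of 1512 and 1421. Under that scaling *S100a1* stayed higher and 5 members were lower: *S100a6*, *Anxa5*, *S100a4*, *Anxa1* and *Anxa2*.

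**Figure D1:**
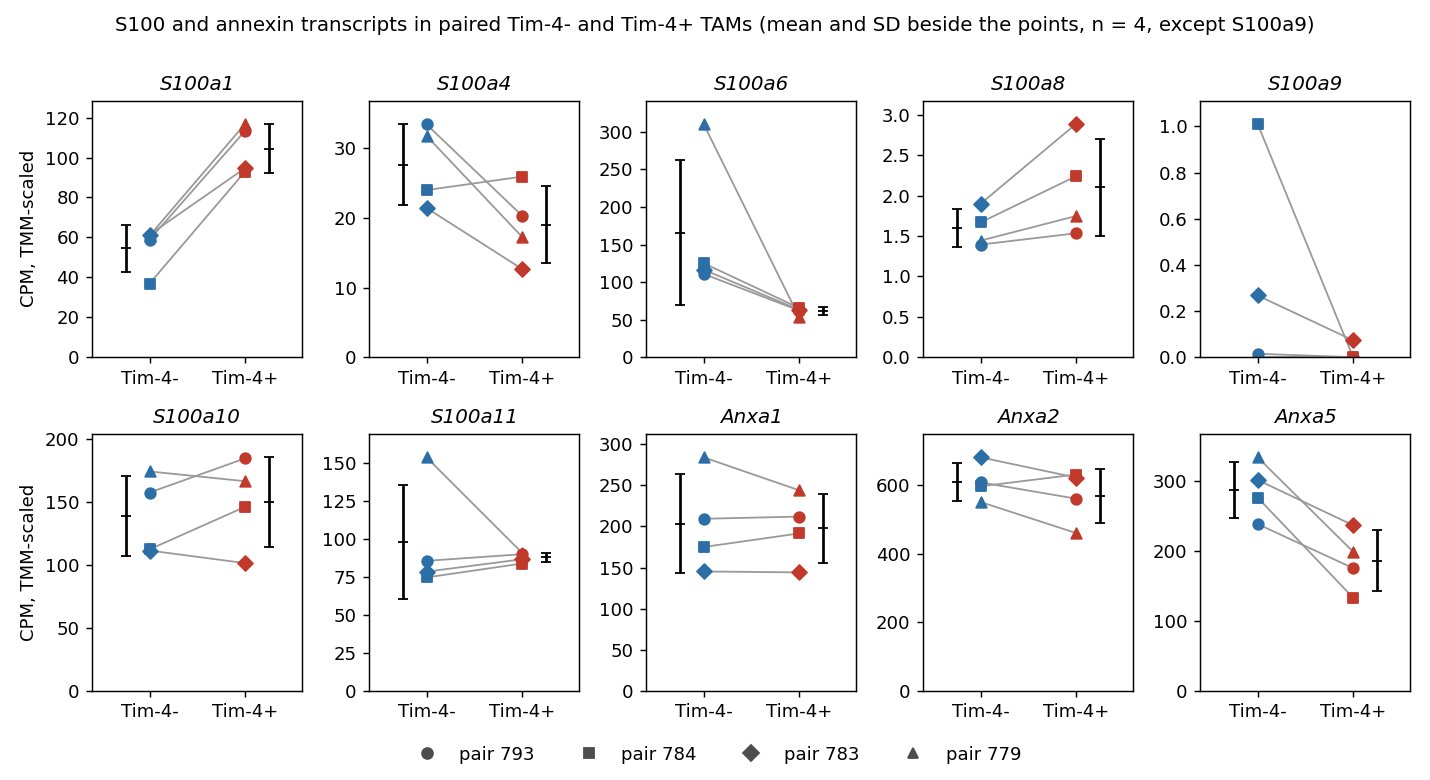
CPM of each member (y axis, TMM-scaled) in the 4 Tim-4- (blue) and 4 Tim-4+ (red) libraries, with a symbol for each pair and a line joining its libraries; bars beside the points are the mean and SD (n = 4; not drawn for *S100a9*). The red and blue points are apart for *S100a1*, *S100a6* and *Anxa5* and overlap for the other genes, and the Tim-4- library of pair 779 stands alone at the top for *S100a6* (311 CPM) and *S100a11* (154 CPM).

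The lines of the plot of CPM by library rise in all 4 pairs for *S100a1* and *S100a8* and fall in all 4 for *S100a6* and *Anxa5*. For the remaining tested members the pairs went both ways.

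*S100a1*, a calcium sensor best known from heart and skeletal muscle, was higher in Tim-4+ TAMs. Its level in the Tim-4+ libraries was 113, 93.0, 94.7 and 117 CPM in pairs 793, 784, 783 and 779. In the Tim-4- libraries it was 58.8, 36.9, 61.4 and 60.8 CPM. The lowest Tim-4+ library was above the highest Tim-4- library, and the Tim-4- library of pair 784 was the lowest of the 8. The means of 104.5 ± 12.4 and 54.5 ± 11.8 CPM (SD, n = 4 per subset) gave a log2 fold change of 0.96 ± 0.13 (SE), or 1.95-fold (adjusted p = 0.00739). The difference held in all 13 alternative settings, including the fit without the pair block (adjusted p = 0.049).

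The gene next to *S100a1*, *S100a13*, is not one of the 10 members and moved the same way. Its product carries small leaderless proteins such as interleukin-1 alpha out of cells. It stood at 48.1, 42.9, 38.5 and 50.1 CPM in the Tim-4+ libraries and at 33.5, 19.4, 25.7 and 32.9 CPM in the Tim-4- libraries. The ranges did not overlap, and for both genes pair 784 held the lowest Tim-4- value. The log2 fold change was 0.71 ± 0.13 (SE; adjusted p = 0.014), and the call was lost in 3 alternatives, with an adjusted p of 0.0845 without the block, 0.0673 with total counts and 0.0621 without pair 784. *S100a1* (ENSMUSG00000044080.9, minus strand, chr3:90511034-90514392) and *S100a13* (plus strand, chr3:90514435-90524581) lie head to head on GRCm38, with 42 bases between the ends of the annotated genes. That stretch is shown because both genes that start from it were higher in Tim-4+ TAMs, with its single CpG in capitals (RefSeq, GRCm38.p6, chr3:90514393-90514434, plus strand).
S100a1 to S100a13: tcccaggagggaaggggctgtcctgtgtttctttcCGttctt

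*S100a6*, or calcyclin, binds annexins and the calcyclin-binding protein and is found in proliferating and epithelial cells as well as in macrophages. It was lower in Tim-4+ TAMs and had the largest difference of the tested members. Its level was 62.1, 65.6, 63.1 and 53.3 CPM in the Tim-4+ libraries of pairs 793, 784, 783 and 779, and 111, 125, 117 and 311 CPM in the Tim-4- libraries. The Tim-4+ libraries lay close together and all below the Tim-4- libraries, of which pair 779 was far above the other 3. The means were 61.0 ± 5.35 CPM and 165.9 ± 96.7 CPM (SD, n = 4 each), and the log2 fold change was -1.28 ± 0.31 (SE; adjusted p = 0.0355), or 2.43-fold higher in Tim-4- TAMs. Leaving out pair 779 gave -0.89 on the log2 scale (adjusted p = 0.018). The adjusted p was 0.058 without the pair block, 0.21 with no count filter, 0.106 without pair 784 and 0.0836 without pair 793.

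The sequence upstream of *S100a6* (ENSMUSG00000001025.8, plus strand, chr3:90612882-90624181) is given because this gene had the largest difference, with each CpG in capitals (RefSeq, GRCm38.p6, chr3:90612644-90612881, plus strand).
S100a6 upstream: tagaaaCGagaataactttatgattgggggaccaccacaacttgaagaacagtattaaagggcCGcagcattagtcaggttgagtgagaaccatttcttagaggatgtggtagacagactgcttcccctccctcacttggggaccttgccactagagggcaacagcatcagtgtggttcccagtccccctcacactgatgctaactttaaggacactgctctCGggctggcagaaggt

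The highest *S100a6* value fell in the library with the highest sum of tumor and mesothelial markers, the Tim-4- library of pair 779 (2363 CPM). The marker sums in the other Tim-4- libraries were 504, 1022 and 1518 CPM for pairs 793, 783 and 784. *S100a6* stood there at 111, 117 and 125 CPM, so both had the same order over the Tim-4- libraries. Within the Tim-4+ libraries the marker sum ranged from 126 to 457 CPM and *S100a6* from 53.3 to 65.6 CPM, in differing orders. The part of these cells in the *S100a6* difference was not tested. *S100a16*, a calcium-binding S100 gene of the same cluster, was also lower in Tim-4+ TAMs. It stood at 1.22, 1.96, 5.59 and 2.27 CPM in the Tim-4+ libraries and at 3.36, 10.5, 7.92 and 18.4 CPM in the Tim-4- libraries. The ranges overlapped, each pair fell, and pair 779 again held the highest value. Within each subset *S100a16* rose in the order of the tumor and mesothelial marker sums. The part of the marker-bearing cells in the *S100a16* difference was not tested. The log2 fold change was -1.85 ± 0.43 (SE; adjusted p = 0.0311), a call lost in 5 alternatives with adjusted p from 0.077 to 0.137.

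**Figure D2:**
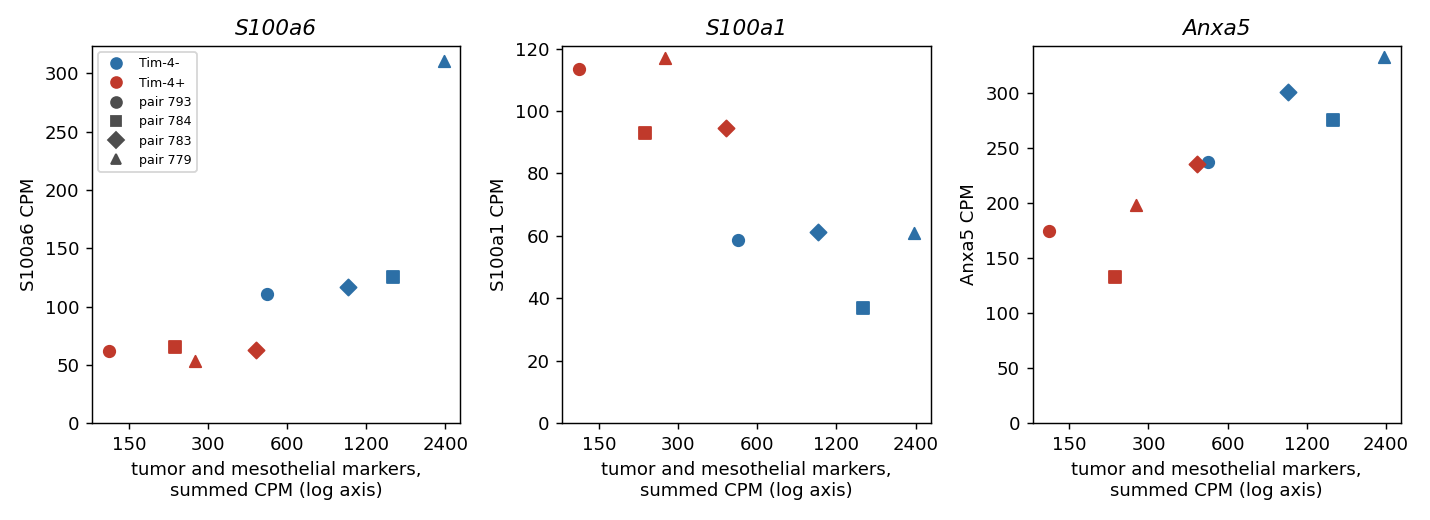
CPM of *S100a6*, *S100a1* and *Anxa5* (y axes, TMM-scaled) against the summed CPM of the 13 tumor and mesothelial markers (x axis, log scale) in the 8 libraries, red for Tim-4+ and blue for Tim-4-, with a symbol for each pair. The Tim-4- libraries lie to the right at 504 to 2363 CPM, and the highest *S100a6* (311 CPM) and *Anxa5* (333 CPM) points are the library with the highest marker sum.

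In the plot of the 3 called members against the marker sums, the colors separate along the x axis as well as the y axis, so the subset and the marker sum cannot be told apart across all 8 points.

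*S100a4*, which is known from fibroblasts, motile cells and monocytes, was at 20.3, 25.9, 12.7 and 17.3 CPM in the Tim-4+ libraries of pairs 793, 784, 783 and 779. In the Tim-4- libraries it was at 33.4, 24.0, 21.4 and 31.8 CPM. The Tim-4+ library was the lower one in 3 pairs and slightly the higher one in pair 784, and the groups overlapped. The 6 fibroblast markers summed to 19.5 to 90.3 CPM in Tim-4+ and 49.9 to 172.6 CPM in Tim-4- TAMs, with 1 called lower, and their part in *S100a4* was not tested. The gene called, *Dcn*, was the largest part of the sum in every library, at 10.5 to 53.6 CPM in Tim-4+ and 31.4 to 152 CPM in Tim-4- TAMs. *Col1a1*, *Col1a2*, *Col3a1* and *Pdgfra* did not pass the test. The log2 fold change of *S100a4* was -0.56 ± 0.18 (SE), and the adjusted p of 0.0661 missed the threshold. It passed in 3 alternatives, with an adjusted p of 0.0349 by DESeq2, 0.0139 with total counts and 0.024 with no count filter. *S100a4* shares exons on the same strand with the gene model Gm42674, which had 0 counts in every library, and reads that matched both may have been set aside as ambiguous, so its level may be understated.

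*S100a10* and *S100a11*, the S100 partners of annexin A2 and annexin A1, did not pass the test. *S100a10* was at 184, 146, 101 and 166 CPM in the Tim-4+ libraries and at 157, 112, 111 and 174 CPM in the Tim-4- libraries. It was higher in Tim-4+ TAMs in pairs 793 and 784 and lower in pairs 783 and 779, by a log2 fold change of 0.10 ± 0.12 (SE; adjusted p = 0.606), which turned to -0.26 with total counts (adjusted p = 0.129). *S100a11* was at 90.0, 83.8, 86.6 and 90.8 CPM in the Tim-4+ libraries and at 85.6, 74.6, 78.5 and 154 CPM in the Tim-4- libraries. It was slightly higher in Tim-4+ TAMs in 3 pairs and lower in pair 779, the same library that stood apart for *S100a6*. Its log2 fold change was -0.09 ± 0.17 (SE; adjusted p = 0.746) with all pairs and 0.13 without pair 779 (adjusted p = 0.499).

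The calprotectin genes were near the bottom of the range. *S100a8* was at 1.53, 2.24, 2.89 and 1.75 CPM in the Tim-4+ libraries and at 1.39, 1.67, 1.90 and 1.44 CPM in the Tim-4- libraries. It was higher in the Tim-4+ library of all 4 pairs by a small margin, the groups overlapped, and the log2 fold change of 0.36 ± 0.26 (SE) did not pass the test (adjusted p = 0.374). The counts of *S100a9* were 0, 0, 4 and 0 in Tim-4+ and 1, 74, 21 and 0 in Tim-4- libraries, so 6 of the 8 libraries had fewer than 10 counts. The highest of these, 74 counts in pair 784, corresponds to 1.01 CPM. No fold change was computed for it. Counts of 0 and 4 show that *S100a9* was hardly detected at this depth, not that it was absent.

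Granulocyte markers were read beside the calprotectin genes because neutrophils carry much of both transcripts. The surface genes that define mature neutrophils were low in every library, with 0 to 5 counts of *Ly6g*, 1 to 8 of *Cxcr2* and 0 of *Cxcr1*. By CPM, the granule genes *Mpo*, *Elane* and *Ngp* peaked in Tim-4- TAMs of pair 784 (182, 46 and 44 counts). Other markers of the list peaked elsewhere. *Camp* (0.42 CPM) and *Lcn2* (134.9 CPM) were highest in Tim-4+ TAMs of pair 784. *Ltf* (0.402 CPM) and *Mmp8* (0.987 CPM) were highest in Tim-4+ TAMs of pair 783, and *Retnlg* (0.285 CPM) in Tim-4- TAMs of pair 793. *S100a9* had 74 counts in Tim-4- TAMs of pair 784 but 0 in Tim-4+ TAMs of that pair. The part of granulocytes in these values was not tested. The list of 15 markers summed to 1441 to 2021 CPM in Tim-4+ TAMs, against 542 to 1403 CPM in Tim-4- TAMs, mostly from *Padi4*, which ranged from 28523 to 80136 counts per library. Of its genes 9 were too low to be tested, 4 were higher in Tim-4+ TAMs (*Padi4*, *Csf3r*, *Lcn2* and *Mmp8*) and 0 were lower. The sums of the 10 monocyte markers overlapped between the subsets, at 1156 to 3356 CPM in Tim-4+ TAMs, against 1216 to 2568 CPM in Tim-4- TAMs. *F13a1* was the largest part in every library, at 518 to 3190 CPM in Tim-4+ and 693 to 2297 CPM in Tim-4- TAMs, so the sum says little of the other markers. *Ly6c2* (9.42-fold), *Ccr2* (12.2-fold), *Chil3* (3.36-fold) and *Ms4a4c* (3.03-fold) were lower in Tim-4+ TAMs, *Hp* was higher (2.33-fold), and 5 did not pass the test.

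*Anxa5* was the annexin among the members that differed. Annexin A5 binds phosphatidylserine and is widely used to label dying cells, and phosphatidylserine is also the ligand of Tim-4. *Anxa5* was at 175, 133, 236 and 198 CPM in the Tim-4+ libraries of pairs 793, 784, 783 and 779. In the Tim-4- libraries it was at 238, 276, 301 and 333 CPM. Each Tim-4+ library was below its partner, and the groups met almost at one value, with pair 783 as the highest Tim-4+ library and pair 793 as the lowest Tim-4- library. The means were 185.5 ± 43.3 CPM and 286.9 ± 40.3 CPM (SD, n = 4 each), and the log2 fold change was -0.65 ± 0.14 (SE; adjusted p = 0.023), or 1.57-fold higher in Tim-4- TAMs. The call was lost in 4 alternatives, with an adjusted p of 0.111 without the block, 0.0848 without pair 779, 0.103 without pair 784 and 0.0568 without pair 793. The direction was the same in each of these.

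The sequence upstream of *Anxa5* (ENSMUSG00000027712.13, minus strand, chr3:36448923-36475894) is given for comparison with that of *S100a6*, since both genes were lower in Tim-4+ TAMs, with each CpG in capitals (RefSeq, GRCm38.p6, chr3:36475895-36476137, minus strand).
Anxa5 upstream: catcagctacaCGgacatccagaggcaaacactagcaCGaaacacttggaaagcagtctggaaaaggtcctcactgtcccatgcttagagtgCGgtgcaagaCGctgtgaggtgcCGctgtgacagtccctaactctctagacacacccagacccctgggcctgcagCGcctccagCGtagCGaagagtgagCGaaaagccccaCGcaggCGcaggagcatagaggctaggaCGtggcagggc

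*Anxa2* was the most abundant member in CPM. It was at 561, 631, 623 and 460 CPM in the Tim-4+ libraries and at 609, 597, 682 and 551 CPM in the Tim-4- libraries. The groups overlapped, and the log2 fold change was -0.11 ± 0.13 (SE; adjusted p = 0.601). An antisense gene, Gm16144, overlaps its exons with 2 to 22 counts per library, and the strand setting of the counting was not given. *Anxa1*, whose product limits inflammation through formyl peptide receptors, was at 212, 192, 144 and 244 CPM in the Tim-4+ libraries and at 209, 175, 145 and 284 CPM in the Tim-4- libraries. Its values followed the pair more than the subset, with pair 779 highest and pair 783 lowest in both. The log2 fold change was -0.02 ± 0.11 (SE; adjusted p = 0.923).

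Of the other 9 annexins, 7 were tested, *Anxa7* was higher and *Anxa8* was lower in Tim-4+ TAMs, and the median log2 fold change was 0.06. *Anxa7*, or synexin, acts in membrane fusion. It was at 154, 240, 169 and 162 CPM in the Tim-4+ libraries and at 126, 140, 142 and 119 CPM in the Tim-4- libraries, without overlap, with a log2 fold change of 0.44 ± 0.12 (SE; adjusted p = 0.0448). *Anxa8*, which is known from epithelia, was at 0.168, 0.32, 1.88 and 0.187 CPM in the Tim-4+ libraries and at 0.899, 0.67, 4.68 and 1.57 CPM in the Tim-4- libraries. It was lower in the Tim-4+ library of each pair and highest in pair 783 in both subsets, with a log2 fold change of -1.89 ± 0.43 (SE; adjusted p = 0.024). The *Anxa7* call was lost in 5 alternatives and the *Anxa8* call in 4. *Anxa8* was not tested in the alternative that asked for at least 1 CPM in 4 libraries. *Anxa3*, the most abundant of these by CPM, averaged 348.6 ± 55.4 CPM in the Tim-4+ and 346.2 ± 32.8 CPM in the Tim-4- libraries (SD over 4), with a log2 fold change of 0.00 (adjusted p = 0.991). *Anxa4*, *Anxa6*, *Anxa9* and *Anxa11* did not pass the test either. Of the other 10 S100 genes 3 were tested. Beside *S100a13* and *S100a16*, *S100b* had a log2 fold change of 0.35 that did not pass the test (adjusted p = 0.837).

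**Figure D3:**
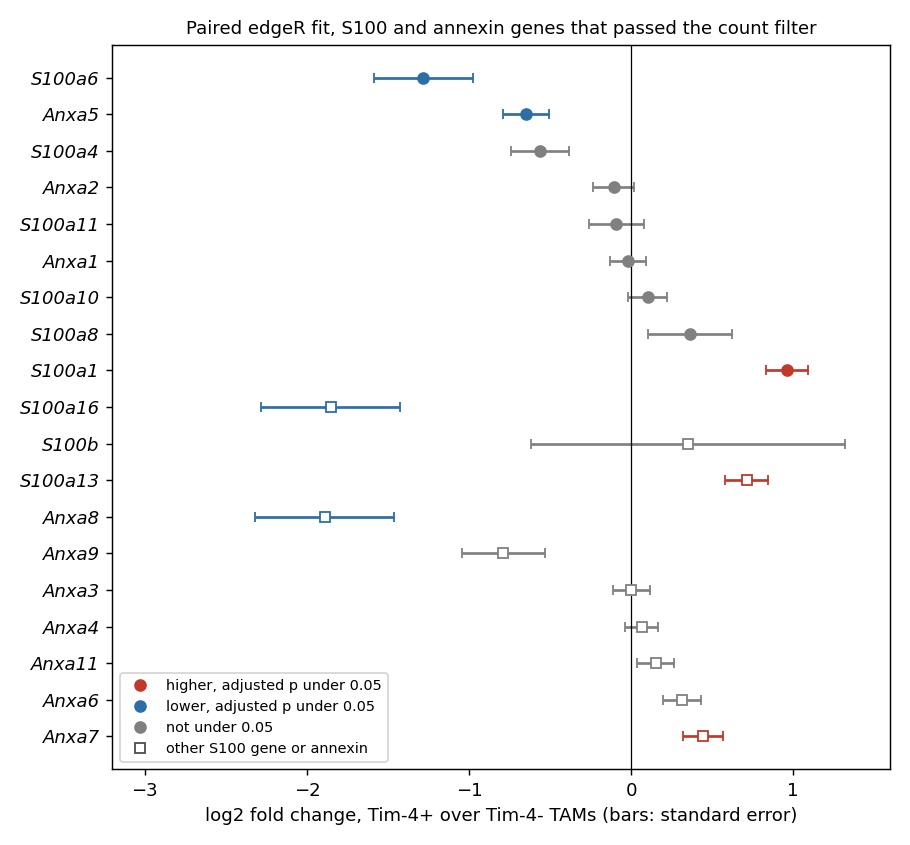
Log2 fold change of Tim-4+ over Tim-4- TAMs (x axis, bars are the SE of the paired edgeR fit) for the 9 tested members (filled circles) and the 10 other tested S100 genes and annexins (open squares). Red marks genes higher and blue genes lower at an adjusted p under 0.05, from -1.89 for *Anxa8* to 0.96 for *S100a1*, and the grey symbols of most annexins lie near 0.

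The plot of fold changes shows calls in both directions within each family. Among S100 genes *S100a1* and *S100a13* were to the right of 0 and *S100a6* and *S100a16* to the left, and among annexins *Anxa7* was to the right and *Anxa5* and *Anxa8* to the left.

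The S100 genes that were called lie in 1 cluster on chromosome 3. From *S100a1* to *S100a9* the cluster holds 12 S100 genes over 184688 bases, and *S100a11* and *S100a10*, 28792 bases apart, lie farther along the chromosome. Direction did not follow position in the cluster in a simple way. *S100a1* and *S100a13* at its start were higher in Tim-4+ TAMs and *S100a16*, the next tested gene, was lower, while *S100a4* and *S100a6*, 6836 bases apart, both had negative log2 fold changes of which that of *S100a6* passed. Of the 12 genes 6 were not tested, and *S100a14*, *S100a3*, *S100a2*, *S100a5* and *S100a7a* were at or near 0 in both subsets.

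**Figure D4:**
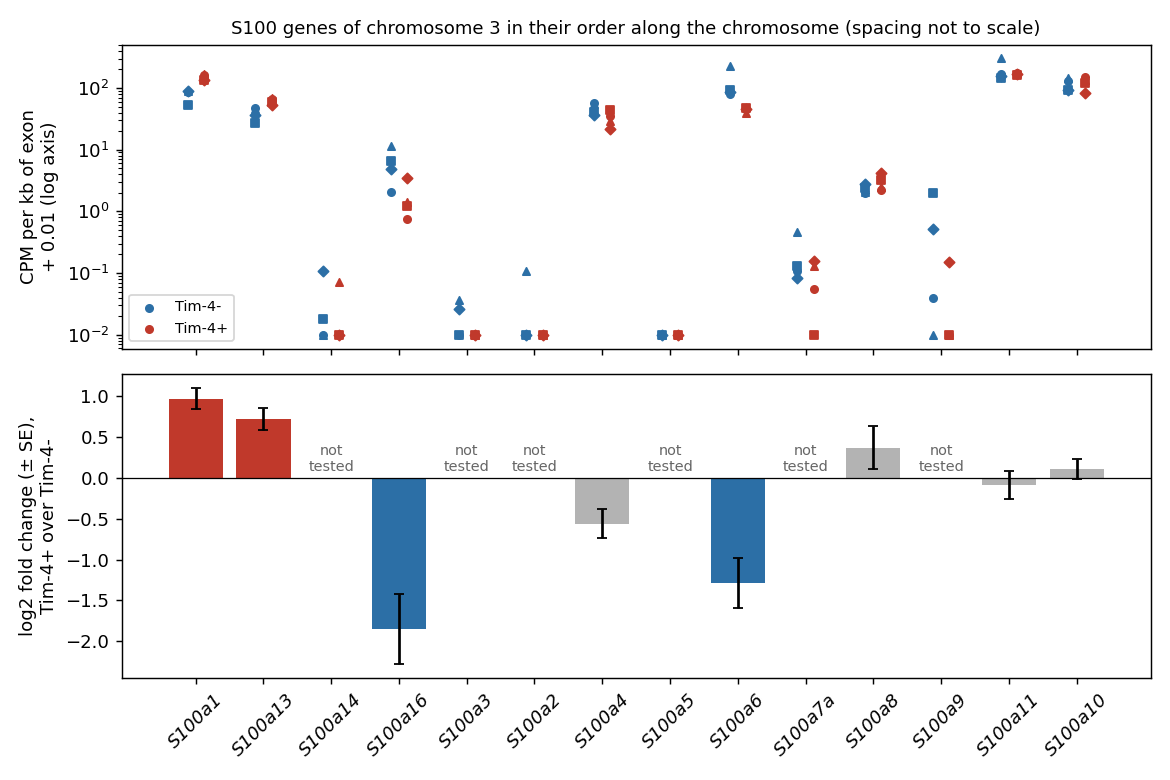
The S100 genes of chromosome 3 in their order (x axis, spacing not to scale). The upper panel gives CPM per kb of exon plus 0.01 (log axis) in each library, and the lower panel the log2 fold change of Tim-4+ over Tim-4- TAMs with its SE, red for higher and blue for lower at an adjusted p under 0.05. Red bars stand at *S100a1* (0.96) and *S100a13* (0.71) and blue bars at *S100a16* (-1.85) and *S100a6* (-1.28).

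The plot of the cluster shows neighbors that differ by several orders of magnitude in level. *S100a1* stands above 100 CPM per kb in Tim-4+ TAMs, and untested genes between it and *S100a6* are at 0 in most libraries.

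Compared per kb of exon, which allows levels to be set between genes, *S100a11* had the highest mean of the members in both subsets. In Tim-4- TAMs that place rested on pair 779, since *Anxa2* was above *S100a11* in pairs 784 and 783. In Tim-4+ TAMs it was at 172 ± 6.32 CPM per kb, followed by *Anxa2* at 152 ± 21.1 and *S100a1* at 151 ± 17.8 (SD, n = 4). *S100a10* at 123 CPM per kb and *Anxa5* at 104 ± 24.4 came next, then *Anxa1* at 68 ± 14.4, *S100a6* at 44.7 ± 3.91 and *S100a4* at 32.6 ± 9.52. *S100a8* followed at 3.03 CPM per kb, and *S100a9* was last. Neighbors down to *Anxa5* were within about 1 SD of each other, the later neighbors differed by more than 1 SD, and *S100a8* lay far below *S100a4*. In Tim-4- TAMs the order was *S100a11* at 192 ± 73.2 CPM per kb, *Anxa2* at 163 ± 14.5, *Anxa5* at 161 ± 22.7, *S100a6* at 121 ± 70.8, *S100a10* at 114, *S100a1* at 78.5 ± 17, *Anxa1* at 69.9 ± 20.6, *S100a4* at 47.3 ± 10 and *S100a8* at 2.31, with *S100a9* again last. Here the neighbors from *S100a11* to *S100a10* were within their spread, as were *S100a1* and *Anxa1*. The per kb scale uses the union of all annotated exons, 1367 bases for *S100a6* and 694 for *S100a1*, so it understates a gene whose shorter transcripts were the ones present.

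Among 16 receptors and partners of these proteins, 14 were tested. Of these 5 rose and 2 fell in Tim-4+ TAMs, where 8.97% and 8.43% of all tested genes did, with a median log2 fold change of 0.20. With total counts the balance turned, to 2 higher and 4 lower. *Bsg*, or CD147, a receptor for S100A9, averaged 667 ± 87.2 CPM in Tim-4+ TAMs against 362.8 ± 41.9 CPM (SD over 4 libraries) without overlap, and rose by a log2 fold change of 0.88 ± 0.14 (SE; adjusted p = 0.00962). The scavenger receptor *Cd36*, which binds the S100A8 and S100A9 complex with its fatty acids, was also higher, with overlapping groups (log2 fold change 0.69, adjusted p = 0.0229). The *Cd36* call was lost in 5 alternatives, with adjusted p from 0.0596 with total counts, where the log2 fold change was 0.33, to 0.239 without the block. *Ager*, the RAGE receptor of several S100 proteins, was near 1 CPM (log2 fold change 0.25, adjusted p = 0.663), and *Tlr4*, a receptor for S100A8, had a log2 fold change of -0.01 (adjusted p = 0.956).

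The formyl peptide receptors *Fpr1* and *Fpr2*, through which annexin A1 acts, rose in Tim-4+ TAMs. *Fpr1* was at 41.2, 205, 53.9 and 64.7 CPM in the Tim-4+ libraries and at 29.9, 167, 24.6 and 35.8 CPM in the Tim-4- libraries of pairs 793, 784, 783 and 779. *Fpr2* was at 18.4, 113, 13.7 and 34.9 CPM in Tim-4+ and at 16.1, 92.4, 7.87 and 19.5 CPM in Tim-4- TAMs. Both were highest in pair 784 in either subset, so the groups overlapped and the difference appeared within the pairs, as log2 fold changes of 0.68 (*Fpr1*, adjusted p = 0.0225) and 0.53 (*Fpr2*, adjusted p = 0.0417). Without the pair block the adjusted p was 0.754 and 0.845, and with total counts the log2 fold changes were 0.33 and 0.17 (adjusted p = 0.156 and 0.397). The *Fpr1* call was lost in 5 alternatives and the *Fpr2* call in 6, among them each of the 4 that left out a pair.

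The plasminogen system, which the complex of S100A10 and annexin A2 joins at the cell surface, differed in opposite directions between receptor and activators. *Plaur*, the urokinase receptor, had means of 562.1 ± 182 CPM in Tim-4+ and 259 ± 54.5 CPM in Tim-4- TAMs and rose by a log2 fold change of 1.08 ± 0.16 (SE; adjusted p = 0.0084) without overlap. *Plau*, or urokinase, fell by 0.84 on the log2 scale (SE 0.14, adjusted p = 0.0104). Its ranges overlapped, from 9.36 to 48.4 CPM in Tim-4+ and from 20.5 to 64.6 CPM in Tim-4- libraries, and without the pair block the adjusted p was 0.496. *Plat*, the tissue-type activator, was at 5.80, 8.10, 14.2 and 10.5 CPM in the Tim-4+ libraries and at 19.2, 49.0, 29.4 and 76.5 CPM in the Tim-4- libraries. The *Plat* ranges did not overlap, the highest value was in the Tim-4- library of pair 779 as for *S100a6*, and the log2 fold change was -2.06 ± 0.32 (SE; adjusted p = 0.012). Within each subset *Plat* rose in the order of the tumor and mesothelial marker sums. The part of the marker-bearing cells in the *Plat* difference was not tested. The plasminogen receptor *Plgrkt*, *Ahnak*, which binds the S100A10 complex, *Myh9*, a target of S100A4, and the S100A6 partners *Cacybp* and *Sugt1* did not pass the test, with log2 fold changes from -0.18 for *Myh9* to 0.38 for *Ahnak*. Without pair 784 none of these 7 calls passed, with adjusted p from 0.062 for *Plaur* to 0.117 for *Cd36* and the same directions.

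Promoter windows of 300 bases, 250 before and 50 after the RefSeq start, were at hand for 9 of the 10 members, all but *S100a10*. The windows of *S100a1*, *S100a6* and *Anxa5* held 11, 6 and 16 CpGs and that of *S100a13* held 14. Over 32851 windows the median was 7 and the quartiles were 3 and 20, so these values lay between the quartiles. The *S100a1* and *S100a13* windows overlap, so what they hold is partly the same. Of the windows of these 4 genes, none held on either strand the TATA box letters TATAAA, which 13.6% of all windows hold. The GC box letters GGGCGG (35.7% of all windows), the AP-1 letters TGANTCA (7.81%) and the ETS core with its flank, GAGGAA (28.3%), were not in them either. *S100a16*, also called lower, had a window with 2 CpGs and 1 ETS core and another with 4 CpGs, 1 GC box and 1 AP-1 match. The TATA box letters were present in the windows of *S100a4*, *S100a8*, *S100a9*, *Anxa1* and *Anxa2*. Among these and *S100a11*, the GC box letters were in *S100a9*, *S100a11* and *Anxa2* and the AP-1 letters in *S100a11* and *Anxa2*. The ETS letters were in *S100a4*, *S100a8*, *S100a11* and *Anxa1*. These matches describe letters only.

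The genes whose levels followed a member most closely over the 8 libraries were found among 8768 genes by the root mean square difference of centred log2 CPM. *Rpl19-ps1* (0.101), *Cenpx* (0.11) and *Gm14303* (0.116) were nearest to *S100a1*, where the median gene was at 0.591. *Tuft1* (0.183) and *Tkfc* (0.263) were nearest to *S100a6*, with a median of 0.864. For *Anxa5* they were *Tecpr1* (0.085), *Sept8* (0.116) and *Rdm1* (0.117), with a median of 0.541.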

How the data were processed

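Per the labels, total RNA libraries (ribosomal RNA removed, stranded kit, paired ends) were each run on 2 lanes. Raw counts of reads for every gene were deposited by lane, 16 lanes for 8 libraries. The submitters' processing notes list FastQC 0.11.3, TopHat2 2.0.13 and Cuffdiff 2.2.1 with GRCm38/mm10, whereas the methods name a human build. The counting tool and its strand setting are not given in the sources used here. Of the reads per lane, 4.59 to 6.83% matched no gene, 3.42 to 4.3% were ambiguous and 9.11 to 24.5% were not unique, and these entries were left out.

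Lanes were summed. One lane of the Tim-4- library of pair 793 was listed by symbol and was joined by row order after its displaced *Timd4* row was put back (96.9% of 53618 comparable symbols and all 10 members matched). Symbols came from GENCODE M21 (98.4% of identifiers). Genes that reached 10 counts in 4 or more of the 8 libraries were tested with edgeR 4.0.16 (R 4.3.3, TMM, robust quasi-likelihood, pair as a block, Benjamini-Hochberg), and called at an adjusted p under 0.05. Pair numbers come from the sample titles. The study's own expression table appears to number the pairs in the reverse order, which would change the name of each pair but not its libraries. Libraries of one number deviated together across genes (r = 0.471, 0.498, 0.408 and 0.277 for pairs 793, 784, 783 and 779), and the block lowered the biological coefficient of variation from 0.396 to 0.261. Whether each number is 1 mouse was not given, so the spread behind the p-values is that of these samples. With the pair as a block, it is the spread of the subset difference over the 4 pairs. Floors of 3 counts cover counting error only. The 13 alternatives comprised other scalings, filters, lanes and joins, DESeq2 1.42.0, no block, and each pair left out.

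The members and lists were chosen with earlier results of these data known. All 10 members are given, and genes of the other lists that passed the filter could be named. The 3 genes nearest to a member had to reach a mean of 10 CPM, with a prior count of 2, and 1 of them is not reported here. Promoter windows are from RefSeq (GRCm38.p6).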

Additional observations from a re-analysis of the deposited data

Results flagged for a closer look

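Of 84 groups of 4 libraries, 9 held a value far from the other 3 by Dixon's test, where chance flags about 5 percent. The Tim-4- library of pair 779 stood apart for *S100a6* at 311 CPM and for *S100a11* at 154 CPM, and it also held the highest sum of tumor and mesothelial markers (2363 CPM). Without pair 779 *S100a6* stayed lower in Tim-4+ TAMs (log2 fold change -0.89) and *S100a11* moved to 0.13. The part of the marker-bearing cells in either value was not tested.

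The Tim-4- library of pair 784 was low for *S100a1* at 36.9 CPM. Pair 784 was high for *Fpr1* in both subsets, at 205 CPM in Tim-4+ and 167 CPM in Tim-4- TAMs, and for *Fpr2* in Tim-4- TAMs at 92.4 CPM. The Tim-4+ library of pair 783 stood apart for *Anxa8* at 1.88 CPM, for *S100a9* at 0.0731 CPM, which is 4 counts against 0 in the other 3, and for the summed monocyte markers at 3.36e+03 CPM.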

How the results depend on the processing

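Over the alternatives, 101 values of single members kept direction and side of the threshold, 8 lost it, 5 passed it and 3 reversed. The reversals were *S100a10* with total counts (-0.26), and *S100a11* (0.13) and *Anxa1* (0.046) without pair 779. Leaving out each pair gave -0.18 to 0.13 for *S100a11* and -0.072 to 0.046 for *Anxa1*. Without the pair (replicate) block, 147 genes were higher and 85 lower, 0 members were lower, 0 other S100 genes and 0 other annexins were called in either direction, and 1 partner was higher and 0 lower. With total counts, 789 genes were higher and 4903 lower, 5 members were lower, 0 other S100 genes and 0 other annexins were higher, 3 other annexins were lower, and 2 partners were higher and 4 lower. With DESeq2, 2328 genes and 2 other annexins were lower. With no filter, 0 other S100 genes and 1 partner were lower. With a filter at 1 CPM, which *Anxa8* did not pass, 0 other annexins were lower, and with lane 2 alone 2 were. Leaving out each pair in turn gave 91 to 1608 genes higher and 67 to 1975 lower, 0 to 2 members lower, 0 to 1 other S100 genes higher and 0 to 1 lower, 0 to 1 other annexins higher and 0 to 2 lower, and 0 to 4 partners higher and 0 to 2 lower. The fewest calls over all genes came without pair 784 (91 higher and 67 lower). One alternative, the symbol-listed lane left out, was chosen after seeing the data. The causes were not tested. Depth limits genes near 0 such as *S100a9*. With lane 2 alone, which changes the lanes used as well as the depth, *S100a8* moved from 0.36 to 0.16 and *Anxa8* from -1.89 to -2.48.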
